A study of Homo sapiens with 6 samples.

Results

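The 9 genes described here encode proteins that modify, fold, trim or bind collagen: the prolyl 4-hydroxylase alpha subunits P4HA1 and P4HA2, the lysyl hydroxylases PLOD1, PLOD2 and PLOD3, the collagen chaperone SERPINH1 (HSP47), the procollagen proteinase ADAMTS14, and the secreted collagen-associated proteins CTHRC1 and SPARC. They are 9 of 17269 genes in the deposited table, found there by symbol, and all 9 had enough counts to enter the fit over 13104 genes. The genes were chosen by name with the difference between shPRSS22 and shCtrl in these same libraries already known. Their differences are therefore given as a description, and nothing is supported with them. No p-value is printed for these genes, and their calls in the fit over all genes are not read as support.

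The study used HCT116, an established human colorectal carcinoma cell line. Poly(A) RNA was sequenced from 3 libraries labelled shPRSS22, in which the serine protease gene PRSS22 was knocked down, and from 3 libraries labelled shCtrl, with a genotype given as WT. The labels name no hairpin, clone, time after knockdown or treatment. They do not tie replicates to separate cultures, so p-values cover the spread between these libraries only, which may be technical.

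Collagen chains are hydroxylated on proline and lysine while they enter the endoplasmic reticulum, by enzymes that need iron, 2-oxoglutarate, oxygen and ascorbate. Hydroxyproline keeps the triple helix stable at body temperature, and hydroxylysine carries sugars and later takes part in crosslinks. SERPINH1 binds the folded helix until it leaves the endoplasmic reticulum, and outside the cell proteinases remove the propeptides so that fibrils can form. Fibroblasts do most of this work in the gut wall, but epithelial cells also make collagens, chiefly of basement membranes.

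Library totals were 15332449 to 15466647 estimated counts in shPRSS22 and 14920523 to 15164328 in shCtrl. PRSS22 itself stood at 3.09, 3.16 and 2.61 CPM in shPRSS22 replicates 1 to 3, against 10.1, 9.38 and 10.1 CPM in shCtrl replicates 1 to 3, where CPM scales counts to a library total of 1000000. All 3 knockdown libraries were below all 3 controls (log2 fold change -1.74, SE 0.135; edgeR quasi-likelihood test, adjusted p = 4.78e-12). All 10 epithelial markers were present, with summed levels of 5236 to 5488 CPM in shPRSS22 and 5216 to 5390 CPM in shCtrl. Singly, 5 of them were higher in shPRSS22, 1 lower and 4 not past an adjusted p of 0.05. Of all tested genes 19.9% were higher and 19.3% lower. Of 12 fibroblast markers 10 are in the table, and their summed levels were 34.6 to 41.3 CPM in shPRSS22 and 30.4 to 38.3 CPM in shCtrl. COL1A1 and ACTA2 made up nearly all of that sum. The fibroblast gene COL1A2 had 2 counts over the 6 libraries, and DCN, THY1 and FAP had 1 each. The summed levels of 11 of 12 endothelial and immune markers were 34.1 to 41.9 CPM in shPRSS22 and 30.8 to 35.1 CPM in shCtrl, nearly all from CD68 and ITGAX. CDH5, an endothelial cadherin, had 0 counts.

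The size of the difference varied among the 9 genes. CTHRC1 and ADAMTS14 were at 38.7% and 44.2% of their control means in shPRSS22. SPARC was at 67.1%. SERPINH1, PLOD1, PLOD3 and P4HA1 were at 81.4%, 81.6%, 87.1% and 88.2%, P4HA2 was at 94.4%, and PLOD2 at 102%. The fit over all genes placed 7 of the 9 lower at an adjusted p under 0.05 and 0 higher, where 19.3% of all tested genes were lower and 19.9% higher. The count lower was 8, with P4HA2 added, when replicate numbers were a block and when shPRSS22 replicate 3 was left out, and 7 in the other refits. The same 7 had groups that did not overlap in CPM, as did 48.6% of all tested genes. Their median log2 fold change was -0.29, against -0.0056 over all tested genes. Because the genes were chosen on this contrast, nothing is read from these shares. In bulk RNA, fewer cells expressing a gene and less of its RNA per cell cannot be told apart.

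**Figure D1:**
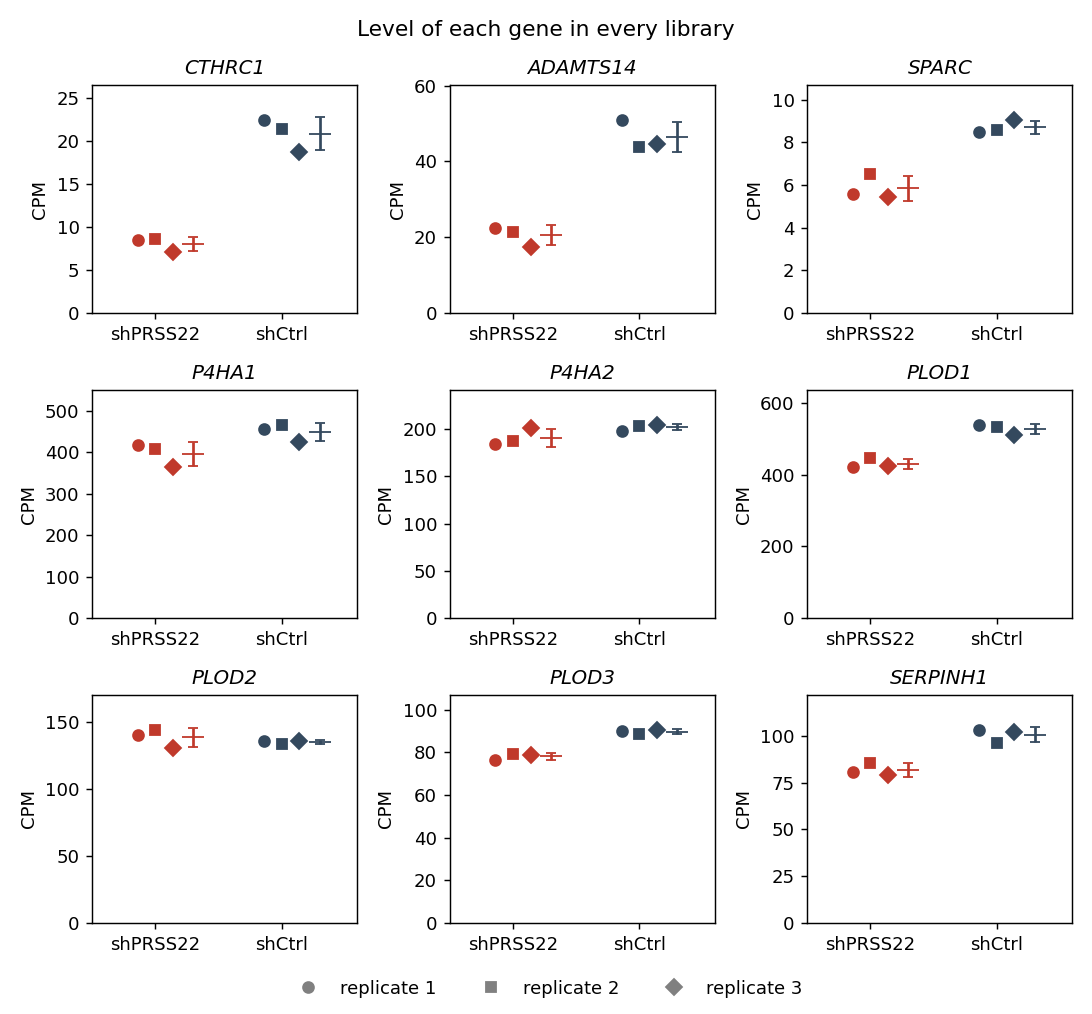
Level of each of the 9 genes in CPM (linear axes from 0) in the 3 shPRSS22 libraries (left, red) and the 3 shCtrl libraries (right, dark blue), with marker shape giving the replicate and the bar the mean ± SD. The groups are far apart for CTHRC1 and ADAMTS14 and overlap for P4HA2 and PLOD2.

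CTHRC1 encodes a secreted glycoprotein with a short collagen-like repeat, first described in injured rat arteries, and spans chr8:103371515-103382997 (GRCh38, GENCODE 29, plus strand) with no overlapping gene. It stood at 8.49, 8.54 and 7.12 CPM in shPRSS22 replicates 1 to 3, against 22.4, 21.3 and 18.7 CPM in shCtrl replicates 1 to 3. The highest knockdown library was below the lowest control by more than either group's spread. Group means were 8.05 ± 0.809 CPM in shPRSS22 and 20.8 ± 1.92 CPM in shCtrl (SD, n = 3 each), a log2 fold change of -1.37 (SE 0.0965). Leaving out any 1 library gave values between -1.44 and -1.29. Among 11156 tested genes with a mean of at least 5 CPM, CTHRC1 ranked 2 from the lowest fold change and ADAMTS14 ranked 5, and among all 13104 tested genes they ranked 6 and 22. The authors' deposited comparison gives CTHRC1 the log2 fold change -1.37, from these same libraries and so not an independent check.

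ADAMTS14 belongs to a small group of metalloproteinases that remove the amino-terminal propeptide of procollagen. Its levels were 22.5, 21.5 and 17.5 CPM in shPRSS22 replicates 1 to 3, against 51.0, 43.7 and 44.6 CPM in shCtrl replicates 1 to 3. No library of one group reached the other, and shPRSS22 replicate 3 was the lowest of all 6. The means were 20.5 ± 2.65 CPM in shPRSS22 and 46.4 ± 3.98 CPM in shCtrl (SD, n = 3 each), a log2 fold change of -1.18 (SE 0.079), or -1.25 to -1.08 with any 1 library left out. Its span is chr10:70672803-70762441 (GRCh38, GENCODE 29, plus strand), and no other annotated gene overlaps it.

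SPARC encodes osteonectin, a calcium-binding matricellular protein that binds fibrillar collagens. Its levels were 5.60, 6.51 and 5.42 CPM in shPRSS22 replicates 1 to 3, against 8.48, 8.58 and 9.05 CPM in shCtrl replicates 1 to 3. The groups did not overlap, though these levels rest on only 83 to 137 counts per library. The means were 5.84 ± 0.583 CPM in shPRSS22 and 8.71 ± 0.306 CPM in shCtrl (SD, n = 3 each), a log2 fold change of -0.58 (SE 0.12). Its span is chr5:151661096-151687165 (minus strand). The antisense gene CLMAT3 overlaps its span. Since no strand marking is described, reads from any transcribed stretch that the pair shares may not be separable. The same limit holds for P4HA1, P4HA2, PLOD2 and PLOD3 below, which also overlap genes on the opposite strand. Spans were compared whole, introns included, so an overlap does not show that reads were shared.

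P4HA1 and P4HA2 encode alternative catalytic subunits of prolyl 4-hydroxylase, each joined with the protein disulphide isomerase P4HB. P4HA1 stood at 418, 408 and 365 CPM in shPRSS22 replicates 1 to 3, against 456, 467 and 426 CPM in shCtrl replicates 1 to 3. Its groups did not overlap, but the highest knockdown library lay just under the lowest control. P4HA2 stood at 184, 187 and 201 CPM in shPRSS22 replicates 1 to 3, against 198, 203 and 205 CPM in shCtrl replicates 1 to 3. Here shPRSS22 replicate 3 lay inside the control range, so the groups overlapped. The log2 fold changes were -0.18 (SE 0.0465) for P4HA1 and -0.08 (SE 0.0359) for P4HA2. In shPRSS22 replicate 3 the subunits went opposite ways, with P4HA1 at its lowest and P4HA2 at its highest of that group. P4HA1 spans chr10:73007217-73096974 (minus strand) and overlaps the antisense gene AL731563.2. P4HA2 was the only gene of the 9 whose estimated counts carried decimals, that is, reads divided with another gene, and its span (chr5:132191838-132295315, minus strand) overlaps PDLIM4, SLC22A4 and P4HA2-AS1 on the opposite strand.

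Their shared partner P4HB averaged 2507 ± 53.1 CPM in shPRSS22 and 2473 ± 21.5 CPM in shCtrl (SD, n = 3 each; log2 fold change 0.02, SE 0.0356, adjusted p = 0.692) and did not pass the test. The third alpha subunit gene, P4HA3, averaged 4.60 ± 0.308 CPM in shPRSS22 and 4.18 ± 0.600 CPM in shCtrl and did not pass either (log2 fold change 0.14, SE 0.155, adjusted p = 0.505).

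The lysyl hydroxylases differed among themselves. PLOD1, which hydroxylates lysines of the helix, stood at 422, 447 and 423 CPM in shPRSS22 replicates 1 to 3, against 539, 532 and 511 CPM in shCtrl replicates 1 to 3. PLOD3, which also transfers sugars to hydroxylysine, stood at 76.3, 79.4 and 78.9 CPM in shPRSS22, against 89.9, 88.7 and 90.7 CPM in shCtrl. Both genes had every knockdown library below every control. PLOD2, which acts on the telopeptides and so on the kind of crosslink formed, stood at 141, 145 and 131 CPM in shPRSS22, against 136, 134 and 136 CPM in shCtrl, with the knockdown libraries on both sides of the controls. The log2 fold changes were -0.29 (SE 0.0343) for PLOD1, -0.20 (SE 0.041) for PLOD3 and 0.03 (SE 0.0383) for PLOD2. With any 1 library left out they ranged from -0.32 to -0.28, from -0.21 to -0.18 and from 0.0078 to 0.075 for PLOD1, PLOD3 and PLOD2 in that order. PLOD1 spans chr1:11934205-11975538 (plus strand) and no other gene overlaps it. PLOD2 (chr3:146069440-146163653, minus strand) overlaps the antisense gene AC107021.1, and PLOD3 (chr7:101205977-101218420, minus strand) overlaps ZNHIT1 on the opposite strand.

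SERPINH1 (chr11:75562056-75572783, plus strand, no overlapping gene) encodes the collagen-specific chaperone of the endoplasmic reticulum. It stood at 80.7, 85.7 and 78.9 CPM in shPRSS22 replicates 1 to 3, against 103, 95.9 and 102 CPM in shCtrl replicates 1 to 3. The groups did not overlap. The means were 81.8 ± 3.53 CPM in shPRSS22 and 101 ± 3.98 CPM in shCtrl (SD, n = 3 each), a log2 fold change of -0.30 (SE 0.043), close in size to that of PLOD1.

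Levels of different genes were compared per transcript length, in the deposited TPM, which scale each library's transcripts to 1000000 in all. In shCtrl the order was PLOD1 (315 ± 7.31 TPM), P4HA1 (294 ± 12.1), SERPINH1 (91.5 ± 4.03), P4HA2 (73.1 ± 1.55), PLOD2 (63.7 ± 1.10), PLOD3 (56.9 ± 0.986), CTHRC1 (37.3 ± 3.12), ADAMTS14 (17.3 ± 0.821) and SPARC (4.41 ± 0.182; SD, n = 3). The libraries of neighbours in that order did not overlap, and the first was 71.3 times the last. The 3 genes of secreted proteins thus stood at the bottom and were also the 3 with the lowest fold changes. In shPRSS22 the same genes held the last 3 places, at 14.7 ± 0.408 TPM for CTHRC1, 7.60 ± 1.08 for ADAMTS14 and 2.98 ± 0.235 for SPARC. P4HA1 (261 ± 18.7 TPM) and PLOD1 (259 ± 2.56) overlapped there, as did SERPINH1 (74.7 ± 1.78) with P4HA2 (69.6 ± 4.04) and P4HA2 with PLOD2 (65.8 ± 2.96).

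**Figure D2:**
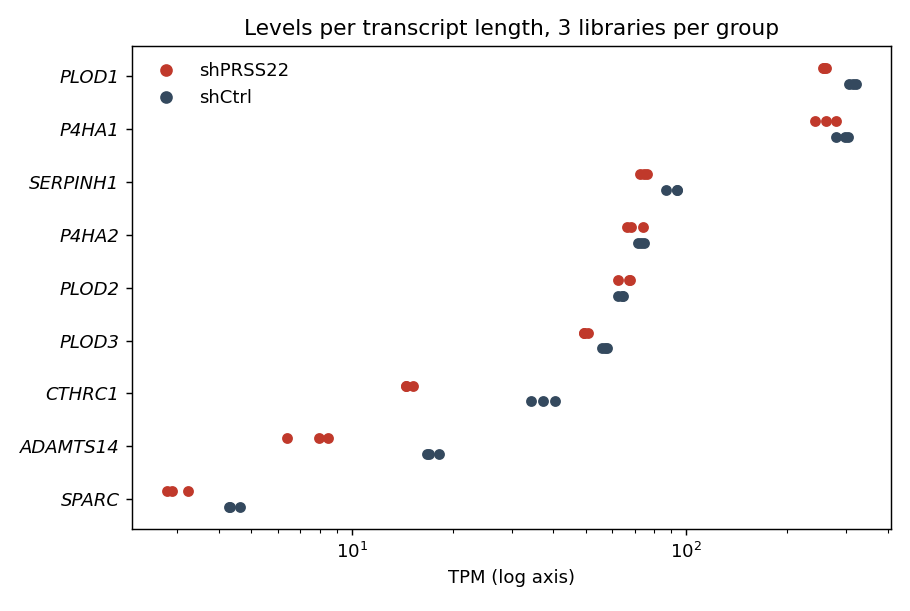
Level per transcript length (TPM, log axis) of the 9 genes in each library, with shPRSS22 in red above shCtrl in dark blue for each gene, ordered by the shCtrl mean. PLOD1 and P4HA1 lie near 300 TPM in shCtrl and the secreted genes CTHRC1, ADAMTS14 and SPARC lie lowest in both groups.

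The make-up of each enzyme family followed from these levels. The summed TPM of the lysyl hydroxylases was 375, 378 and 369.9 in shPRSS22 replicates 1 to 3, against 443, 434 and 429 in shCtrl replicates 1 to 3. PLOD2 made up 18.1%, 17.8% and 16.9% of that sum in shPRSS22, against 14.5%, 14.4% and 15.01% in shCtrl. PLOD1 made up 68.7%, 69.1% and 69.4% in shPRSS22, against 72.6%, 72.7% and 71.5% in shCtrl. For both genes the shares of the groups did not overlap, while the shares of PLOD3 overlapped. The share of PLOD2 was up by 2.96 percentage points and that of PLOD1 changed by -3.21. The level of PLOD2 itself overlapped between groups, at 65.8 ± 2.96 TPM in shPRSS22 and 63.7 ± 1.10 TPM in shCtrl, while the family sum was lower in shPRSS22. Of the summed TPM of P4HA1 and P4HA2, P4HA2 held 19.6%, 20.2% and 23.4% in shPRSS22, against 19.3%, 19.4% and 21.0% in shCtrl, and the groups overlapped. Replicate 3 was the highest in each group. These shares describe the contrast on which the genes were chosen and were not tested.

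**Figure D3:**
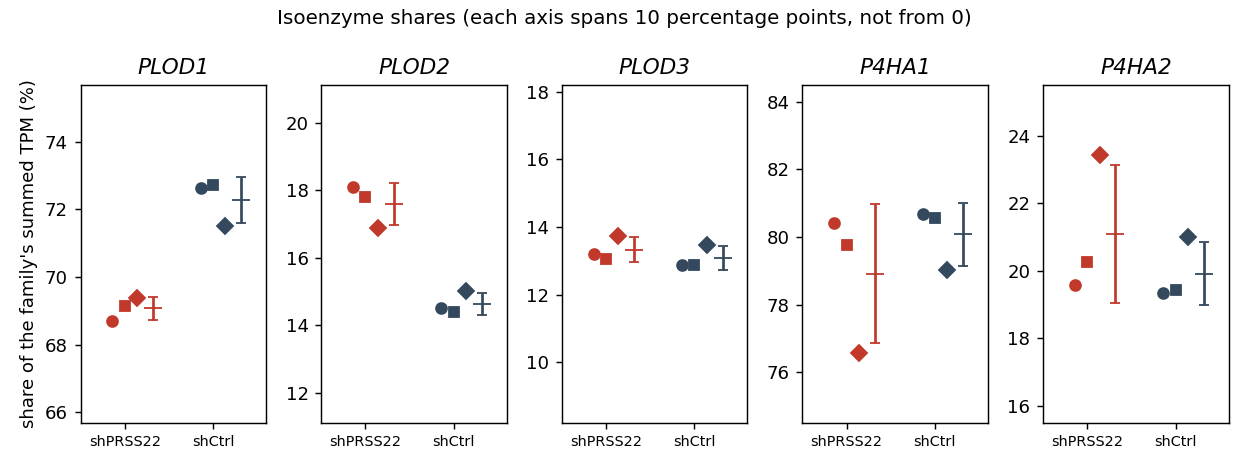
Share of each gene in the summed TPM of its enzyme family (percent; every axis spans 10 percentage points and does not start at 0) in shPRSS22 (left, red) and shCtrl (right, dark blue), with marker shape giving the replicate in the order circle, square, diamond and the bar the mean ± SD. The groups are apart for PLOD1 and PLOD2 and overlap for PLOD3, P4HA1 and P4HA2.

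Promoter windows from 250 bases before to 50 bases after the transcript start were taken from RefSeq (GRCh38.p14), and those of 8 of the 9 genes were used: 9 windows, SERPINH1 with 2 that overlap. Their content of G and C was 55.7% in the P4HA2 window and 61.3% to 79.7% in the others, beside a median of 58.7% over all 35116 windows. The RefSeq starts can differ from the ends of the GENCODE spans given above. The ADAMTS14 window lies wholly before its span, and the P4HA2 window lies well inside its span. Motifs were searched on both strands, and a match says only that the letters are in the window. The core of the hypoxia response element (ACGTG) was in windows of 3 of the 8 genes, P4HA1, PLOD2 and SERPINH1, whose overlapping windows hold the same site; 21.4% of all windows hold it. The CCAAT box was in windows of 3 genes, against 34.6% of all windows, and the core of the TATA box (TATAA) was in those of 2, against 20.4%. The core of the GC box (GGGCGG) was in those of 5 genes, against 45.0% of all windows. A heat shock element core (GAANNTTC) was in those of 2 genes, against 6.77%.

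The 5 windows below are those of ADAMTS14 and SPARC, which differed most among the genes with a window used, of the chaperone SERPINH1 (its first window), and of P4HA1 and PLOD2, which share motifs. They are written 5′ to 3′ on the gene's strand with motif matches in capitals. ADAMTS14 (chr10:70672256-70672555, plus strand) has as its matches 5 GC boxes, a pair of them overlapping. SPARC (chr5:151686866-151687165, minus strand) has none of the motifs. SERPINH1 (chr11:75562003-75562302, plus strand) holds the heat shock core 71 bases before the start. P4HA1 (chr10:73096817-73097116, minus strand) and PLOD2 (chr3:146161135-146161434, minus strand) share a TATAA match 30 bases before the start and ACGTG further upstream. PLOD2 also holds a CCAAT box and a GC box, which P4HA1 lacks. A link between these matches and the RNA levels was not tested.
ADAMTS14: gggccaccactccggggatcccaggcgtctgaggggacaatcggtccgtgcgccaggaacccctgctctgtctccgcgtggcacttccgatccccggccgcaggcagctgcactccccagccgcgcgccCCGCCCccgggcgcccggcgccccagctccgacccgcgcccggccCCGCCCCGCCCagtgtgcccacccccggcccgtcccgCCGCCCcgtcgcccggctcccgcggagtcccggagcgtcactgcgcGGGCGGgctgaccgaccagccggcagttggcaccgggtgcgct
SPARC: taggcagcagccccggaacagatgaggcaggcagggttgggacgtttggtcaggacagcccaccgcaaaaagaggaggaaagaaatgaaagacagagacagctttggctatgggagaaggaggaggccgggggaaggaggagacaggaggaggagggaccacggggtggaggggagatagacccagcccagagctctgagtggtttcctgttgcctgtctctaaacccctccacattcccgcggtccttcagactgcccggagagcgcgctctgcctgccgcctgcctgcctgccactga
SERPINH1: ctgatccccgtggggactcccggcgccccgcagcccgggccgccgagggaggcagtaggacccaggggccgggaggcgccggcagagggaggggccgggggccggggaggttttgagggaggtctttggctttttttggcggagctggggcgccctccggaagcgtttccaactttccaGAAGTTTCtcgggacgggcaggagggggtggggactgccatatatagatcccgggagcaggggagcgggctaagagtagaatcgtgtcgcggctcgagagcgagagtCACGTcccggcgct
P4HA1: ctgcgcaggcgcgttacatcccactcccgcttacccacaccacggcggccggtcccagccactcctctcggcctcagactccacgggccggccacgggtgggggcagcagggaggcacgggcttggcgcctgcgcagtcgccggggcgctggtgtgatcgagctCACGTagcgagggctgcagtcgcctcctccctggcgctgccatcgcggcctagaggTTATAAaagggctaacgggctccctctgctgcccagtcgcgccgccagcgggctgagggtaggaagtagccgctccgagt
PLOD2: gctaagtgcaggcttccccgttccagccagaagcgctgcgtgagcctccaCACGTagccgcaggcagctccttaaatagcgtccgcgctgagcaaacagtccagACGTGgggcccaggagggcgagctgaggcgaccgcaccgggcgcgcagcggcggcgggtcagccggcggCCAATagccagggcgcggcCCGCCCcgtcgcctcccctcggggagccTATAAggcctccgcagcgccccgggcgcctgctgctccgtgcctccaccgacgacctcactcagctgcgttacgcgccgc

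Relatives and partners of the 9 genes were counted in lists that do not contain them. Over 165 such genes, 117 were tested, 25 were higher, 31 lower and 61 not past an adjusted p of 0.05, with a median log2 fold change of 0.02. These shares, 21.4% higher and 26.5% lower, stand beside the 19.9% and 19.3% of all tested genes.

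Other hydroxylases, sugar transferases and helpers of the endoplasmic reticulum went both ways: of 16 tested genes 3 rose, 5 fell and 8 did not pass (median -0.02). P3H1, the prolyl 3-hydroxylase that works in a complex with CRTAP and the isomerase PPIB, rose to 58.7 ± 0.89 CPM in shPRSS22, against 47.7 ± 1.67 CPM in shCtrl (SD, n = 3 each; log2 fold change 0.30, adjusted p = 1.08e-05). CRTAP fell (-0.18, adjusted p = 0.000331), and PPIB had a log2 fold change of 0.02 (adjusted p = 0.605). COLGALT1, which adds galactose to hydroxylysine, fell to 84.5 ± 4.78 CPM in shPRSS22, against 106 ± 2.05 CPM in shCtrl (-0.33, adjusted p = 2.03e-07). The collagen isomerase FKBP10 also fell (-0.36), as did P3H3 (-0.38), and FKBP14 (0.29) and the ion channel TMEM38B (0.31) rose.

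Among other procollagen proteinases, enhancers and crosslinking enzymes, 2 of 12 tested rose, 3 fell and 7 did not pass (median -0.04). BMP1, which removes the carboxy-terminal propeptide, fell to 36.0 ± 1.99 CPM in shPRSS22, against 47.7 ± 1.26 CPM in shCtrl (log2 fold change -0.41, adjusted p = 5.09e-07). ADAMTS2, the best known amino-terminal proteinase, averaged 8.55 ± 0.964 CPM in shPRSS22 and 7.82 ± 0.558 CPM in shCtrl and did not pass (0.13, adjusted p = 0.403), and ADAMTS3 had 1 count in all. LOXL2, a lysyl oxidase that crosslinks collagen, rose to 79.9 ± 5.40 CPM in shPRSS22, against 56.3 ± 1.78 CPM in shCtrl (0.50, adjusted p = 7.71e-10). Its relative LOXL1 fell (-0.70, adjusted p = 3.65e-06), and LOX, at 2.95 ± 0.129 CPM in shPRSS22 and 2.54 ± 0.32 CPM in shCtrl, did not pass (0.22, adjusted p = 0.388). LOXL3 rose (0.50) and FURIN fell (-0.12), but each lost its call on leaving out a single library, LOXL3 with adjusted p of 0.107 to 0.149 (shCtrl replicate 1 or 3, shPRSS22 replicate 1 or 3) and FURIN with 0.0562 to 0.106 (shCtrl replicate 1 or 3, shPRSS22 replicate 1). The count that rose was then 1 without either of those controls or shPRSS22 replicate 1.

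Of the other ADAMTS and ADAMTS-like genes 11 of 23 were tested, of which 5 fell and 0 rose (median -0.28). PAPLN, encoding papilin (-0.60), ADAMTS10 (-0.48) and ADAMTS17 (-0.42), all under 13 CPM, were the lowest of these. Per transcript length, the mean level of ADAMTS2 was 2.297 TPM in shPRSS22 and 2.377 TPM in shCtrl, below that of ADAMTS14 in both groups. In TPM its shPRSS22 mean was thus the lower, while in CPM it was the higher, so no direction is read for ADAMTS2.

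Of 14 tested genes for collagen export 10 rose, 1 fell and 3 did not pass (median 0.19), by small amounts. SEC23A, of the inner vesicle coat, rose to 172 ± 3.76 CPM in shPRSS22, against 129 ± 6.39 CPM in shCtrl (SD, n = 3 each; log2 fold change 0.42, adjusted p = 1.26e-10). SEC13 of the outer coat (0.33) and the coat GTPase SAR1A (0.28) rose too, and KLHL12, an adaptor for ubiquitination of the coat, fell (-0.20). MIA3, the receptor that loads procollagen into vesicles, did not pass (0.05, adjusted p = 0.307). The list holds both coat genes that serve secretion in general and genes tied to procollagen.

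The substrates differed widely in level. Of 17 fibrillar and basement membrane collagen chains only 8 had enough counts to test, of which 4 fell and 1 rose (median -0.18). The highest of them, COL4A5, averaged 62.0 ± 5.50 CPM in shPRSS22 and 69.2 ± 4.43 CPM in shCtrl. It fell (-0.16) but had an adjusted p of 0.0807 with DESeq2. COL1A1 averaged 30.3 ± 2.77 CPM in shPRSS22 and 28.7 ± 3.98 CPM in shCtrl (SD, n = 3 each) and did not pass (log2 fold change 0.08, adjusted p = 0.545), while COL1A2, its partner chain in type I collagen, had 2 counts in all, COL4A1 had 17 and COL4A2 had 6. COL4A3, of the specialised basement membrane network, fell (-0.55, adjusted p = 1.21e-06). COL11A2 fell too (-0.63, adjusted p = 0.0124). COL4A4 fell (-0.24) but had adjusted p of 0.0734 to 0.0955 when shPRSS22 replicate 2 or shCtrl replicate 1 was left out, and either step took the count that fell to 2. COL4A6 rose (0.50) but had adjusted p of 0.0716 to 0.123 when shPRSS22 replicate 1 or 2, or shCtrl replicate 1 or 3, was left out, and each took the count that rose to 0. Of 16 tested other chains 6 fell and 2 rose (median -0.08). COL18A1, the source of endostatin, fell to 184 ± 7.48 CPM in shPRSS22, against 274 ± 7.23 CPM in shCtrl (-0.58, adjusted p = 1.48e-14). COL6A1 fell (-0.41), as did COL6A2 (-0.34), to 200 ± 8.76 CPM in shPRSS22, against 252 ± 10.3 CPM in shCtrl. COL12A1 (0.23) rose. COL6A3 (2.02) rose from a low level, 2.56 ± 0.244 CPM in shCtrl, to 10.4 ± 0.597 CPM in shPRSS22. COL25A1 fell (-0.83) but had adjusted p of 0.0702 to 0.191 without shPRSS22 replicate 1 or 2 or shCtrl replicate 2, and the count of 6 was 3 without that control.

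Matricellular genes other than SPARC and CTHRC1 rose in 4 of 14 tested members, fell in 1 and did not pass in 9 (median 0.03). SPOCK3, a proteoglycan related to SPARC, rose to 12.7 ± 0.173 CPM in shPRSS22, against 7.09 ± 0.255 CPM in shCtrl (log2 fold change 0.84, adjusted p = 6.31e-08). CCN2 rose (0.55), and SPP1 rose from 3.89 ± 0.620 CPM in shCtrl to 12.7 ± 1.97 CPM in shPRSS22 (1.70). THBS3 (-0.45) was the member that fell. The count that fell was 2 without shCtrl replicate 2 or 3 and 3 without shPRSS22 replicate 1.

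P4HA1, P4HA2 and PLOD2 are well-known targets of hypoxia-inducible factor. Other hypoxia-induced genes rose in 3 of 19 tested members, fell in 4 and did not pass in 12 (median 0.02). The angiogenic factor VEGFA fell to 249 ± 2.75 CPM in shPRSS22, against 284 ± 1.87 CPM in shCtrl (log2 fold change -0.19, adjusted p = 1.59e-05), and the glycolytic regulator PFKFB4 fell (-0.25). The carbonic anhydrase CA12 (0.33) and INSIG2 (0.22) rose. ADM (-0.86) and SLC2A1 (-0.49) fell and ANGPTL4 (0.20) rose, but each lost its call in 4 of the 6 fits with 1 library left out, with adjusted p of 0.0738 to 0.114, 0.0547 to 0.101 and 0.117 to 0.249 in that order; the libraries were shPRSS22 replicate 1 and shCtrl replicate 2 for all 3 genes, shPRSS22 replicate 2 for ADM and ANGPTL4, shCtrl replicate 1 for ADM and SLC2A1, and shCtrl replicate 3 for ANGPTL4 and SLC2A1. The mean log2 level of this list, relative to the mean of all 6 libraries, was 0.04, 0.06 and -0.16 in shPRSS22 replicates 1 to 3, against 0.06, 0.04 and -0.04 in shCtrl. Replicate 3 of shPRSS22 was the lowest for this list, as it was for P4HA1, PLOD2, CTHRC1, ADAMTS14, SPARC and SERPINH1, and the part of that library in their values was not tested beyond leaving it out. Without it the log2 fold change was -0.12 for P4HA1 and 0.07 for PLOD2. The list's count that rose was 6 without shPRSS22 replicate 3, and its count that fell was 2 without shPRSS22 replicate 1 or without either of shCtrl replicates 1 and 2. Of 8 other oxygenase and ascorbate genes 2 fell and 0 rose (median 0.02): P4HTM, a transmembrane prolyl hydroxylase (-0.29), and HIF1AN (-0.14). With DESeq2 or a replicate block 1 rose, ASPH, an aspartyl hydroxylase.

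**Figure D4:**
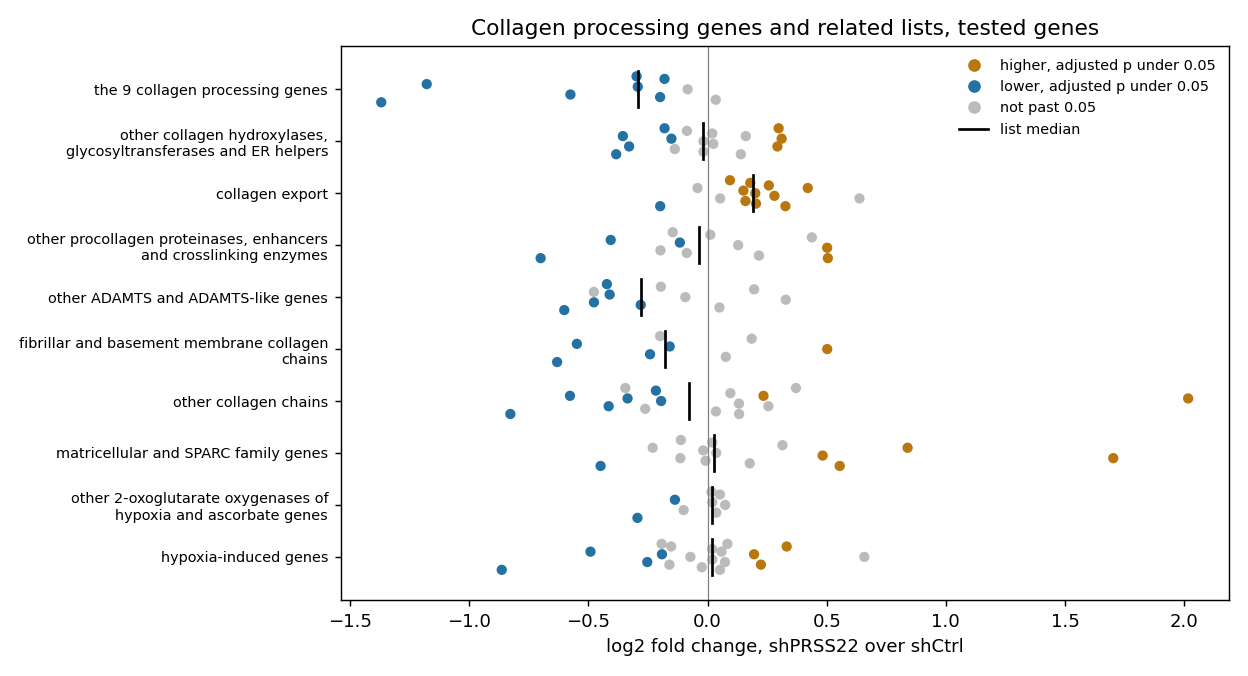
Log2 fold change, shPRSS22 over shCtrl, of each tested gene in the set of 9 (top) and in the related lists, coloured by edgeR call at adjusted p under 0.05, with the list median as a black bar. The medians range from -0.29 in the 9 genes to 0.19 in collagen export.

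The genes nearest in pattern were found by the root mean square difference of log2 CPM, each gene centred on its mean over the 6 libraries, among the 11156 genes of at least 5 CPM. For CTHRC1 the nearest was ADAMTS14, at 0.118, then SLC16A6 (0.152) and FGF9 (0.153). For ADAMTS14 they were FGF9 (0.0844), CTHRC1 (0.118) and PDE4B (0.127). For P4HA1, CEBPA (0.0155), RPL36AL (0.0179) and SLC29A3 (0.0190) were nearest, and for PLOD2, KLHL5 (0.0172), THUMPD2 (0.0173) and TOM1 (0.0196). With 2 groups of 3 libraries, this measure mostly ranks genes by how alike their group differences are.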

How the data were processed

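Poly(A) RNA of 3 shPRSS22 and 3 shCtrl libraries was analysed from 1 deposited table. Per the file headers, the authors deposited an estimated count per gene and library (expected counts that need not be whole), FPKM, TPM, a normalised read count (a scaled signal), and their comparison as log2 fold change, p-value and q-value. The submitters' processing notes list RSEM 1.3.1 beside HISAT2 2.2.1, DESeq2 1.4.5, Bowtie2 2.3.4.3, R 4.3.1 and FastQC 0.12.1, with the build GRCh38.p13 and no roles. Estimated counts were rounded. Differences were fitted over all genes with edgeR 4.0.16 (R 4.3.3; TMM, filterByExpr, robust quasi-likelihood F test, two-sided, Benjamini-Hochberg over 13104 genes, threshold 0.05), after the code was tested on simulated data. The SE is the log2 fold change over the square root of F. CPM uses the TMM-scaled total of tested genes, and marker sums use the plain total. Deposited TPM set levels between genes, and deposited FPKM was an alternative. The normalised read counts were not used further. Alternatives were DESeq2 1.42.0, its size factors, other filters on low counts, log2 TPM with pseudocounts of 0.1 and 1, a replicate block, and each library left out. Replicates differed by 1.80 to 3.05 in chi-square per gene, above the 1 that sampling leaves. Each library counted once, though this spread may be technical and does not show separate cultures.

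The members, lists and alternatives were chosen with earlier results of these data known. Named genes are the 9 members, PRSS22, fixed partners (P4HB, P3H1, CRTAP, PPIB, COLGALT1, BMP1, ADAMTS2, ADAMTS3, LOX, LOXL2, P4HA3), and up to 3 risers and 3 fallers per list at a mean of at least 1 CPM. For CTHRC1, ADAMTS14, P4HA1 and PLOD2 the 3 nearest genes in pattern are named too. MIA3, ASPH, VEGFA, COL1A1, COL1A2, COL4A1, COL4A2, COL4A5, COL6A2 and the markers were named after their values were seen.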

Additional observations from a re-analysis of the deposited data

How the results depend on the processing

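Of 117 refits of the 9 log2 fold changes, 116 stayed within 1 SD of the replicates, 1 moved and 0 reversed: SPARC was at -0.45 on the log2(TPM + 1) scale. Blocking on the replicate number, the fit over all genes called 2782 higher and 2747 lower (without it 2603 and 2523), CTHRC1 was at -1.37 and PRSS22 at -1.74, the related genes lower numbered 38 against 31, hypoxia-induced genes lower numbered 8 against 4, matricellular genes lower 2 against 1, proteinases and crosslinking enzymes higher 1 against 2, and the call of P4HA2 was added to those of the 9 genes. Same-numbered libraries correlated at 0.0734, 0.0784 and 0.164 in their deviations from group means over genes of at least 5 CPM, so the numbers were not taken as pairs. Every library correlated best with its own number, a hint from the data and not the design. DESeq2 called 1886 higher and 1726 lower, with 1 proteinase or crosslinking gene higher (against 2), 0 fibrillar or basement membrane chains higher (against 1) and 3 other chains lower (against 6). With no filter on low counts, 2 matricellular genes were lower and 1 proteinase or crosslinking gene higher. In the TPM order of shPRSS22, leaving out 1 library moved P4HA1 and PLOD1 between places 1 and 2, and P4HA2 and PLOD2 between 4 and 5. Counts limit SPARC most, at 83 to 137 per library.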
